A study of Mus musculus with 9 samples.

Results

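The acetylcholine receptor genes described here are 10 genes of the mouse, 6 encoding nicotinic subunits (Chrna3, Chrna6, Chrna7, Chrnb1, Chrnb2 and Chrnb4) and 4 encoding muscarinic receptors (Chrm1 to Chrm4). They were taken from the count table by gene symbol, and all 10 were found among its 55247 genes. The tissue was the dorsal root ganglion (DRG), which holds the cell bodies of somatosensory neurons, from E18.5 embryos shortly before birth. Poly(A) RNA was sequenced in 3 genotypes with 3 libraries each. WT is labelled wild type with no further allele. Isl1Cre/+ embryos carried Cre recombinase knocked into 1 copy of Isl1, and so had 1 intact copy of that gene. Isl1Cre/+::Meis2LoxP/LoxP embryos (mutant) carried the same Cre allele with both copies of Meis2 floxed at the exon that begins the homeodomain. Cre was thus driven by the Isl1 locus, which is active in postmitotic sensory neurons, so that cells which never express Isl1, such as the glia of the ganglion, kept their Meis2 alleles. Neither the labels nor the methods say whether the libraries came from single embryos or from separate litters, so the p-values given here measure only the spread between these libraries.

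Nicotinic receptors are ion channels made of 5 subunits around a cation pore, and acetylcholine or nicotine opens them within milliseconds. The α3 subunit with β4 forms the main channel of autonomic ganglia, α7 forms channels by itself, β2 pairs with several α subunits in the brain, α6 is found mostly in catecholamine neurons and the retina, and β1 belongs to the receptor of the neuromuscular junction. Muscarinic receptors are G protein-coupled: M1 and M3 act through Gq and phospholipase C, M2 and M4 through Gi/o, which lowers cyclic AMP and opens potassium channels. In sensory neurons both families have been studied for their part in nociception and itch.

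The libraries held 23854607 to 29103444 counts, of which the 10 receptor genes together took 4699 to 5987. The sensory neuron markers, 11 genes such as Isl1, Avil and the Ntrk receptors, were abundant in every library, with summed levels from 5181 to 7547 CPM (counts scaled to library size and by the trimmed mean of M values, TMM). Meis2 was lower in the mutant than in WT by 1.33 on the log2 scale (edgeR quasi-likelihood test, adjusted p = 0.00779) and than in Isl1Cre/+ by 1.23 (adjusted p = 0.00215). Isl1 was lower by 0.48 in Isl1Cre/+ than in WT (unadjusted p = 0.00593) and by 0.48 in the mutant than in WT (unadjusted p = 0.00756). Neither difference in Isl1 remained after adjustment over all genes tested. Among the 9 libraries, mutant 2 and WT 1 correlated least with the others over all genes (median rank correlations 0.979 and 0.981, against 0.991 to 0.995 for the other 7), and mutant 2 had the highest summed level of skeletal muscle markers.

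Every receptor gene had reads in all 9 libraries. Genes were tested when at least 1 library held 100 counts or more, which left 13200 genes. For 9 of the 10 receptor genes this number was reached in every library, and Chrnb1 reached it in mutant 2 alone. Levels of different genes were compared as CPM per kilobase of annotated exon, averaged over the 9 libraries. On that scale Chrm4 stood first at 10.4 ± 1.22 (SD, n = 9), followed by Chrnb2 at 8.23 ± 0.507 and Chrm2 at 8.13 ± 0.954. Chrna7 came next at 5.05 ± 0.464. The remaining 6 genes lay between 2.001 ± 0.15 for Chrna6 and 0.902 ± 0.333 for Chrnb1, with Chrna3 at 1.99 ± 0.292, Chrm3 at 1.67 ± 0.145, Chrnb4 at 1.48 ± 0.275 and Chrm1 at 1.101 ± 0.154 in between. The mean pools the genotypes: in WT alone Chrna3, at 2.30 ± 0.115, lay above Chrna6, at 2.04 ± 0.117, in all 3 libraries, and in the mutant the means were 1.83 ± 0.0949 and 1.97 ± 0.12.

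Most neighbours in this order overlapped in their ranges over the libraries. A gap without overlap separated Chrm2 (lowest library 6.997) from Chrna7 (highest 5.58), and another separated Chrna7 (lowest 4.08) from Chrna6 (highest 2.25). The place of Chrm4 depends on its gene model: the annotation gives it a single exon of 1440 bases, and the RefSeq start of the gene lies upstream of that exon, so that the length used leaves out the first part of the RefSeq transcript. With the longest annotated transcript as length in place of all exons, Chrnb2 came first at 10.8 and Chrm4 second at 10.4, Chrna7 rose to 8.09, next to Chrm2 at 8.67, and 6 of the 10 genes kept their rank. The gap above Chrna7 thus depended on the length used.

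**Figure D1:**
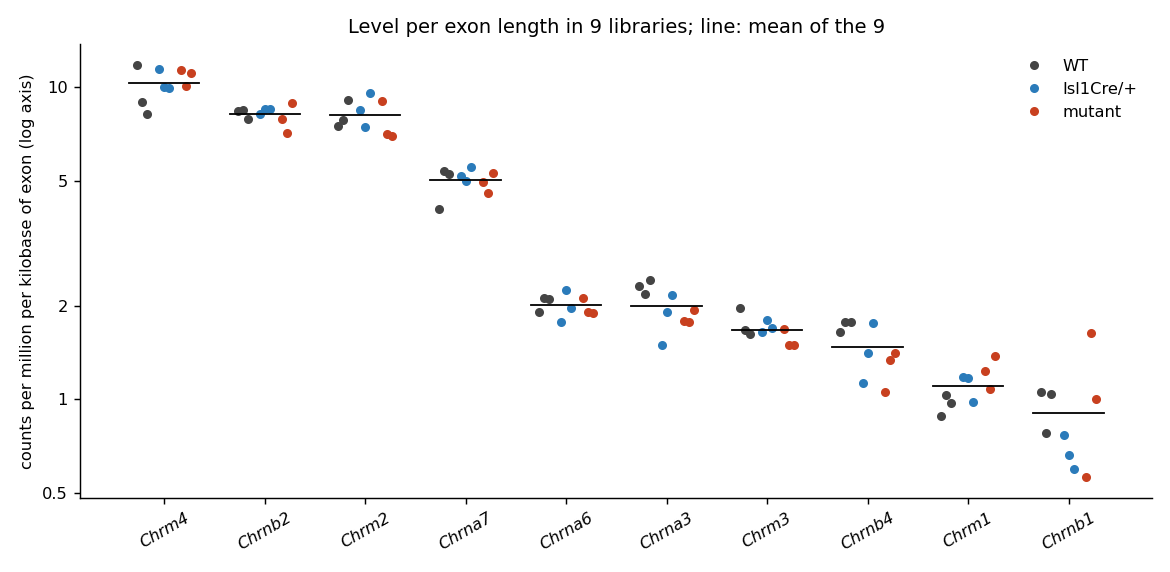
Level of each receptor gene in CPM per kilobase of annotated exon on a log axis, with 1 point per library coloured by genotype and a line at the mean of the 9 libraries. Chrm4, Chrnb2 and Chrm2 lie above all libraries of Chrna7, and Chrna7 above all libraries of the other 6 genes, down to 0.564 for the lowest library of Chrnb1.

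Chrna3 and Chrnb4 are neighbours. In the mm10 (GRCm38) assembly, with GENCODE M21 gene models, Chrna3 (ENSMUSG00000032303) spans chr9:55010111-55026562 and Chrnb4 (ENSMUSG00000035200) chr9:55028154-55048779, both on the minus strand, with 1591 bases between them. Chrna5, a subunit gene outside the 10, lies 2331 bases from the other end of Chrna3, on the plus strand. The others of the 10 lie on separate chromosomes: Chrna6 on 8, Chrna7 on 7, Chrnb1 on 11, Chrnb2 on 3, Chrm1 on 19, Chrm2 on 6, Chrm3 on 13 and Chrm4 on 2. The 250 bases before the RefSeq start (GRCm38.p6) were available for 8 of the 10 genes, and were searched on both strands for the core of the Meis binding motif, TGACAG, and for the GC box bound by Sp1, GGGCGG. The Meis core was present in 2 of the 8 (1 match before Chrna7 and 2 before Chrm2), against 15.859% of 32851 mouse promoters of the same length. The GC box was present in 5 of the 8 (Chrna3, Chrna7, Chrnb1, Chrm2 and Chrm4), against 32.742% of all promoters. The GC content of the windows ran from 50.0% for Chrm2 to 70.0% for Chrm4. All but Chrm2 lay above the median of 52.4% over all promoters, and the part of GC content in the count of GC boxes was not tested. Of the 250 bases before Chrnb4, 235 lie in its own annotated exons. Shown are the window before Chrna3, the gene whose difference between genotypes held in the most alternative fits alongside its neighbour Chrnb4, and the window before Chrm2, the one with a pair of Meis cores. They are chr9:55026563-55026812 (minus strand) and chr6:36387834-36388083 (plus strand), written 5′ to 3′ and ending at the base before the start. Capitals mark the motifs: in the Chrna3 window the GC box on the opposite strand, in the Chrm2 window the Meis core on the opposite strand at both its places (CTGTCA) and the GC box (CCGCCC).
Chrna3: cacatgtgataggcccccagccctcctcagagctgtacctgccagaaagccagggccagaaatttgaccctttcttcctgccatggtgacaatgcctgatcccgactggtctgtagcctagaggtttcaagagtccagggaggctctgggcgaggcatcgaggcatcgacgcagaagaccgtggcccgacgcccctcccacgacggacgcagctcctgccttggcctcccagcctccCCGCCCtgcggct
Chrm2: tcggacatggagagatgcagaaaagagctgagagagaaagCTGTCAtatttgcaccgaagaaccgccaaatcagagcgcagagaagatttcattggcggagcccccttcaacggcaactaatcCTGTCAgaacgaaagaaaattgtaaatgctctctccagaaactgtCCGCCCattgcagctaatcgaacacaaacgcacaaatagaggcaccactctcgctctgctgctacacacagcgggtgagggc

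The first comparison asked which genes differed between DRG lacking Meis2 in Isl1-expressing neurons and WT DRG. A gene was called when its fold change was at least 1.2 with an unadjusted p under 0.05. These thresholds are the study's, which applied them to limma voom, and the test used here was edgeR's quasi-likelihood test. Of the 10 receptor genes 3 met it, 2 lower and 1 higher in the mutant, beside 0.318% of all genes tested. In the same 3 genes the libraries of the genotypes did not overlap, beside 2.76% of all genes. Chrna3 and Chrnb4 were lower and Chrm1 was higher. After adjustment over the 13200 genes no receptor gene remained (adjusted p = 1 for each). The median absolute log2 fold change was 0.16 over the receptor genes and 0.064 over all genes tested, and the median signed change was -0.047 against -0.009. The receptor genes were chosen with earlier results of these data known, so these shares and medians are only a description. Several of them also had few counts, and such genes carry more counting error.

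Chrna3, the α3 subunit, had 12.1, 11.5 and 12.7 CPM in the WT libraries (raw counts 322, 324 and 365). In the mutant libraries it had 9.36, 9.35 and 10.2 CPM (249, 246 and 249 counts). The mutant libraries were all below the WT libraries, with means of 12.1 ± 0.608 CPM in WT and 9.64 ± 0.499 in the mutant (SD, n = 3 each). The log2 fold change was -0.33 (SE 0.110, 95% interval -0.584 to -0.069, edgeR unadjusted p = 0.0197), a level 1.25-fold lower. Isl1Cre/+ libraries had 7.86, 10.01 and 11.4 CPM (231, 280 and 322 counts), so that this genotype, too, lay entirely below WT, its highest library just under the lowest of WT, and covered the range of the mutant.

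Chrnb4, the β4 subunit, had 6.14, 6.58 and 6.60 CPM in WT (163, 186 and 190 counts) and 3.95, 4.98 and 5.25 in the mutant (105, 131 and 128 counts). No mutant library reached the lowest WT library. The means were 6.44 ± 0.264 and 4.73 ± 0.689 CPM, and the log2 fold change was -0.45 (SE 0.161, 95% interval -0.823 to -0.071, edgeR unadjusted p = 0.0258), a level 1.36-fold lower. In Isl1Cre/+ the libraries had 4.19, 5.26 and 6.53 CPM (123, 147 and 185 counts), reaching from the mutant's range into that of WT. Within Isl1Cre/+ the library with the lowest Chrna3 was also the lowest for Chrnb4 and the library with the highest was also the highest, and over the 9 libraries the log2 levels of the pair had Pearson's r = 0.893, a description over points that share genotype. Chrna5, on the other side of Chrna3, had 91 to 135 counts. Its log2 fold change was 0.10 for the mutant against WT (-0.343 to 0.538, edgeR unadjusted p = 0.62) and -0.001 for Isl1Cre/+ against WT (-0.373 to 0.370).

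**Figure D2:**
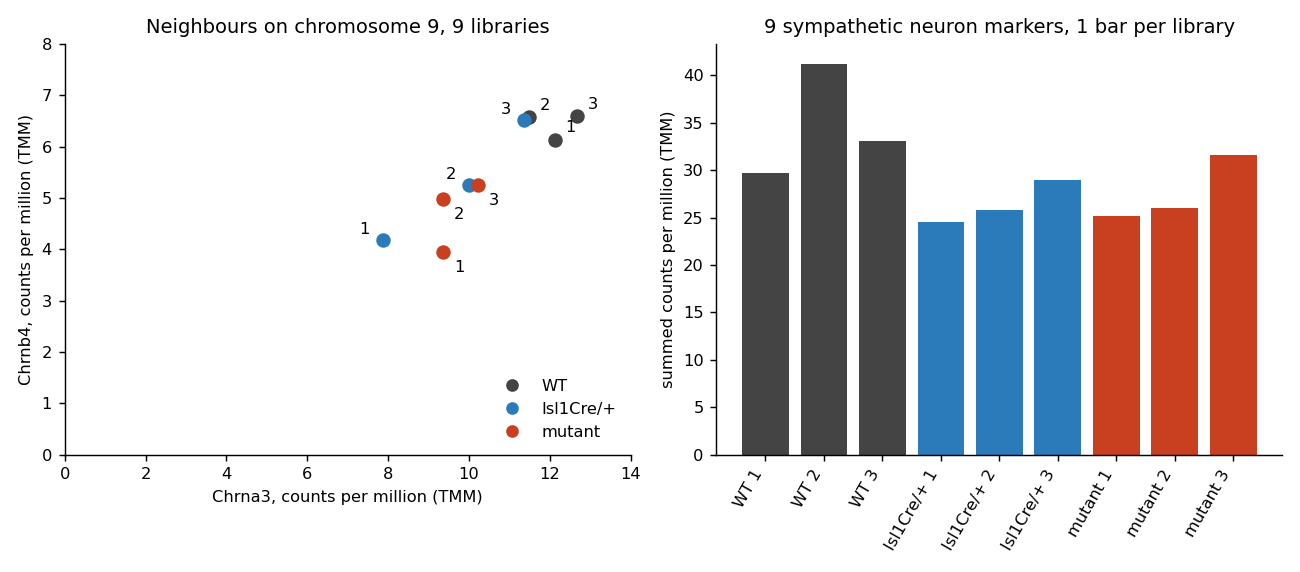
Left, Chrnb4 against Chrna3 in CPM, with 1 point per library coloured by genotype and numbered by replicate. The mutant points lie below and to the left of the WT points, while the Isl1Cre/+ points spread from 7.86 to 11.4 CPM of Chrna3. Right, the summed CPM of 9 sympathetic neuron markers in each library, highest in WT 2 at 41.2 and lowest in Isl1Cre/+ 1 at 24.6.

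Sympathetic neurons use the α3 and β4 subunits, and their ganglia lie near the DRG. The 9 sympathetic markers summed to 29.7, 41.2 and 33.1 CPM in the WT libraries, then 24.6, 25.8 and 28.97 in Isl1Cre/+ libraries, with 25.2, 26.0 and 31.6 in mutant ones. Th, which makes catecholamines and is also used by a class of touch neurons, gave more reads than any other of the 9, with 472, 514 and 477 counts in WT, against 395, 434 and 500 in Isl1Cre/+ and 370, 367 and 353 in mutant libraries. Dbh, the enzyme that makes noradrenaline and a defining gene of sympathetic neurons, was low and had 10, 138 and 42 counts in WT, against 0, 10 and 0 in Isl1Cre/+ and 10, 13 and 48 in mutant libraries. The summed level was below all WT libraries in all 3 Isl1Cre/+ libraries and in mutant 1 and 2, and its part in the result for Chrna3 and Chrnb4 was not tested. Of 11 markers of spinal cord interneurons and central glia, the summed level was 31.6 to 46.8 CPM in WT, 23.2 to 39.1 in Isl1Cre/+ and 30.8 to 34.4 in the mutant, with overlap. Slc6a5, Gad1 and Gad2, 3 neuronal genes of that list, were chosen after their values were seen. In each, every WT library had more counts than any other library. None of the 3 passed the filter. Among all genes tested, libraries did not overlap in 2.76% between the mutant and WT and in 5.66% between Isl1Cre/+ and WT. In the other genes of the list WT overlapped the rest, and Aqp4 was highest in Isl1Cre/+ 1. Slc6a5, the glycine transporter, had 23, 31 and 27 counts in WT, against 3, 4 and 1 in Isl1Cre/+ and 4, 10 and 16 in mutant libraries. Gad1, which makes GABA, had 51 to 67 counts in WT and 15 to 42 in the other libraries. Gad2, which also makes GABA, had 24, 16 and 15 counts in WT, against 0, 3 and 2 in Isl1Cre/+ and 5, 10 and 6 in mutant libraries. Their part in the result was not tested either. WT 2 was the library with the most Dbh. Without it, mutant against WT, the log2 fold change was -0.36 for Chrna3 and -0.43 for Chrnb4. With all libraries these were -0.33 and -0.45. Chrnb4 was no longer called without WT 2 (edgeR unadjusted p = 0.0752). WT 3, which stayed in, had a higher summed sympathetic level than every mutant library, so this fit does not test the part of sympathetic RNA. In RNA from whole ganglia, fewer cells of a type and less RNA per cell cannot be told apart.

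Chrm1, the M1 receptor, moved in the other direction. Its WT libraries had 5.72, 6.69 and 6.32 CPM (152, 189 and 182 counts) and its mutant libraries 8.01, 6.99 and 8.95 (213, 184 and 218 counts). The mutant libraries were all above WT, although mutant 2 exceeded WT 2 by little. The means were 6.25 ± 0.489 and 7.98 ± 0.977 CPM, and the log2 fold change was 0.35 (SE 0.147, 95% interval 0.009 to 0.697, edgeR unadjusted p = 0.0455), a level 1.28-fold higher. Isl1Cre/+ libraries had 7.66, 7.58 and 6.39 CPM (225, 212 and 181 counts), which overlapped both other genotypes. The call was lost with DESeq2 (log2 fold change 0.36, unadjusted p = 0.0683), with library size only (0.36, unadjusted p = 0.0683), with the replicate number as a block (0.35, unadjusted p = 0.0873) and in 5 of 6 fits that each left out 1 library. Of the exon bases of Chrm1, 5.07% lie opposite another annotated gene, Gm22820. Whether reads were counted by strand is not stated, so the effect of this overlap on the count of Chrm1 is not known.

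These 3 calls rested on few reads and depended on the libraries used. Against all 6 control libraries together, none of them was called, beside 0.674% of all genes called. The log2 fold change was then -0.18 for Chrna3 (edgeR unadjusted p = 0.23), -0.32 for Chrnb4 (unadjusted p = 0.0897) and 0.25 for Chrm1 (unadjusted p = 0.0716). None was called without WT 3, beside 0.508% of all genes called, and the log2 fold changes were then -0.29, -0.43 and 0.36. None was called without mutant 1, beside 0.909% of all genes, and they were then -0.31, -0.33 and 0.35. Chrna3 alone was called without WT 2, beside 0.303% of all genes. Over 17 alternative fits Chrna3 and Chrnb4 were each called in 12 and Chrm1 in 8, with the same direction in all 17.

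The other 7 receptor genes were not called. Chrnb2, the most counted of the 10, had 1868, 2001 and 1907 counts in WT and 1765, 1580 and 1820 in the mutant, or 69.1 ± 2.50 and 67.0 ± 7.35 CPM. Its log2 fold change of -0.04 had the narrowest interval of the 10, from -0.278 to 0.189. Of its exon bases, 16.3% lie opposite Adar, and the effect of that overlap on its count is likewise not known. Chrna7, the α7 subunit, had 22.2 ± 3.31 CPM in WT and 22.4 ± 1.67 in the mutant, a log2 fold change of 0.01 (-0.298 to 0.325). Its lowest library was WT 1, at 18.4 CPM against 20.7 to 25.1 in the other 8. Chrna6, the α6 subunit, had 5.92 ± 0.341 and 5.73 ± 0.349 CPM, a log2 fold change of -0.05 (-0.370 to 0.271).

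Among the muscarinic genes, neither of the Gi/o-coupled pair was called. Chrm2, the M2 receptor, had 49.6 ± 5.09 CPM in WT (1213 to 1592 counts) and 46.7 ± 6.99 in the mutant (1032 to 1456 counts), a log2 fold change of -0.09 (-0.392 to 0.218). Chrm4, the M4 receptor, had 13.9 ± 2.76 and 15.7 ± 0.975 CPM, a log2 fold change of 0.17 (-0.196 to 0.534). The spread of Chrm4 in WT came from WT 1, at 17.1 CPM beside 13.0 and 11.8 in the others. Without WT 1 the log2 fold change was 0.34 and Chrm4 was called (edgeR unadjusted p = 0.0174, beside 1.0% of all genes called), and without both WT 1 and mutant 2 it was 0.40 (unadjusted p = 0.00928, beside 1.38%). Chrm3, the M3 receptor and like Chrm1 coupled to Gq, had 10.9 ± 1.17 and 9.73 ± 0.689 CPM, a log2 fold change of -0.17 (-0.467 to 0.133). So of the Gq-coupled pair Chrm1 was called higher, while the estimate for Chrm3 was negative with an interval that includes 0.

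**Figure D3:**
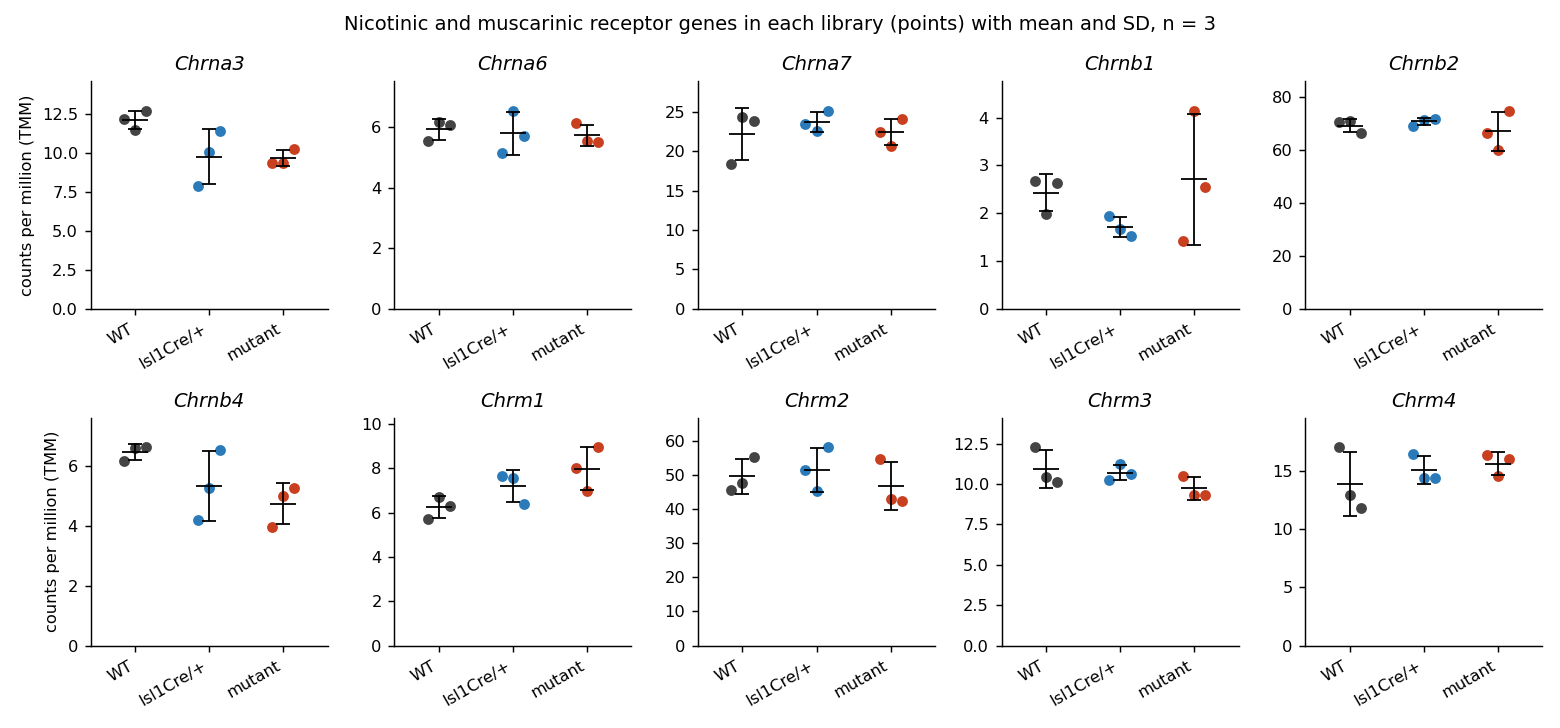
CPM of each receptor gene in each library (points), with the mean and SD of each genotype (n = 3) and an axis that starts at 0. In Chrna3 and Chrnb4 all mutant points lie below the WT points, in Chrm1 all lie above, and in Chrnb1 a single mutant library stands at 4.14.

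Chrnb1, the β1 subunit of the muscle receptor, was the gene with the widest spread. It had 71, 56 and 76 counts in WT, against 57, 47 and 43 in Isl1Cre/+ and 38, 109 and 62 in mutant libraries. The mutant thus held both its lowest and its highest library, at 1.43 and 4.14 CPM, with a mean of 2.71 ± 1.36. The log2 fold change from WT was 0.15 (-0.743 to 1.050, edgeR unadjusted p = 0.7), and without mutant 2 it was -0.28. Mutant 2 was also the library with the most reads from the other subunits of the fetal muscle receptor: Chrna1 had 59 counts there and 5 to 51 elsewhere, Chrnd 43 against 2 to 23 and Chrng 47 against 1 to 20. These 3 subunits did not pass the filter on low counts. The summed level of 14 skeletal muscle markers, which include these 3, was 2319 CPM in mutant 2, beside 147 and 622 in mutant 1 and 3. It was 519, 130 and 1003 in the WT libraries, and 137, 178 and 72.8 for Isl1Cre/+. All 14 markers were in the table, 9 passed the filter, and none was at 0 in any library. The macrophage markers, 8 genes, were likewise highest in mutant 2, at 140 CPM against 55.9 to 87.6 elsewhere, as were those of fibroblasts (5519 against 2993 to 5173) and of smooth muscle and mural cells (320.0 against 220 to 309). The gene whose levels followed Chrnb1 most closely over the 9 libraries was C1qc, a complement gene of macrophages (Pearson's r = 0.975). The part of RNA from these cell types in the values of Chrnb1 was not tested.

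**Figure D4:**
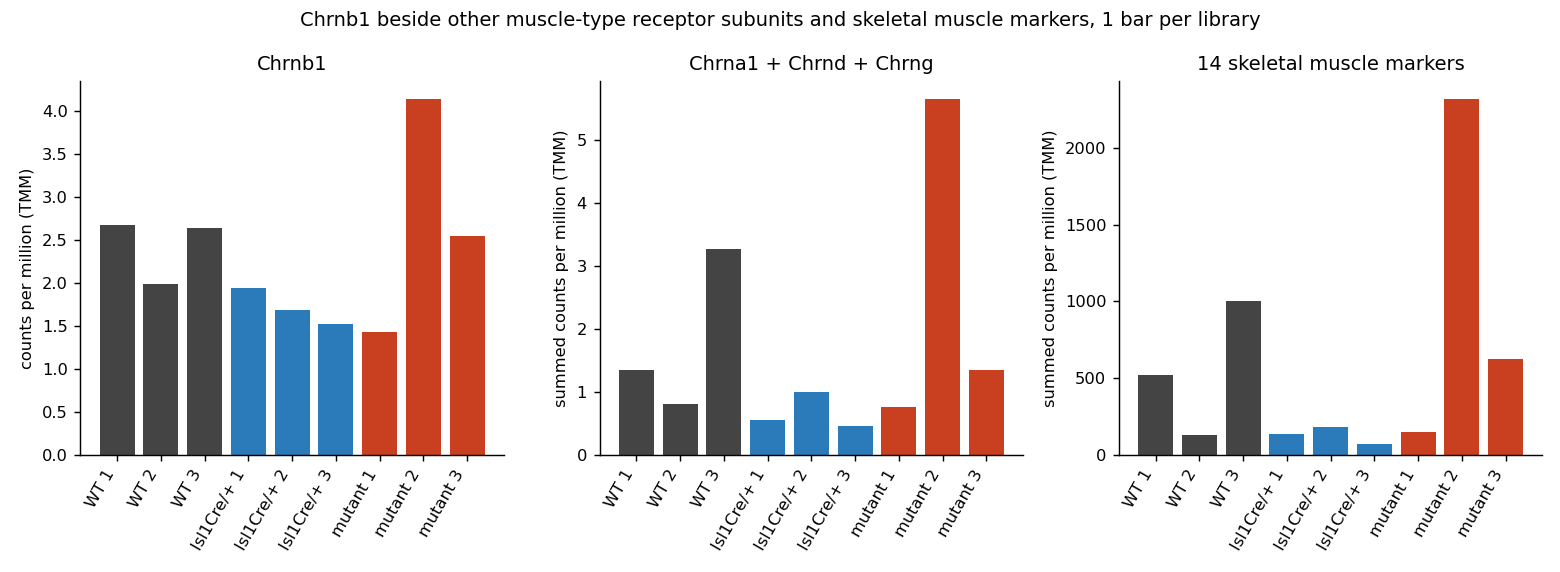
CPM of Chrnb1, summed CPM of the muscle receptor subunits Chrna1, Chrnd and Chrng, and summed CPM of 14 skeletal muscle markers, with 1 bar per library coloured by genotype. Mutant 2 has the highest bar in all 3 panels, at 4.14 CPM for Chrnb1 and 2319 CPM for the markers.

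The comparison of the mutant with Isl1Cre/+, which share the Cre allele and differ in the floxed Meis2 alleles, bears on Meis2 itself. It uses the same mutant libraries as the comparison above. None of the 10 receptor genes was called, none had an unadjusted p under 0.05 in edgeR, and for none did the libraries of the genotypes separate, beside 1.67% of all genes called and 7.65% whose libraries did not overlap. By DESeq2 and by limma voom, too, no receptor gene was called, beside 1.79% and 1.17% of all genes. Chrna3 stood at 9.74 ± 1.76 CPM in Isl1Cre/+ and 9.64 ± 0.499 in the mutant, a log2 fold change of -0.02 (SE 0.143, 95% interval -0.350 to 0.320). Chrnb4 stood at 5.32 ± 1.17 and 4.73 ± 0.689, a log2 fold change of -0.17 (SE 0.202, -0.645 to 0.301). Chrm1 stood at 7.21 ± 0.713 and 7.98 ± 0.977, a log2 fold change of 0.15 (SE 0.134, -0.167 to 0.460). For these 3 genes the interval includes both 0 and a difference as large as that between the mutant and WT.

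The largest estimate in this comparison was that of Chrnb1, 0.66 (SE 0.385, -0.242 to 1.557), which fell to 0.21 without mutant 2. The other 6 genes lay between -0.14 for Chrm2 and 0.05 for Chrm4. The intervals were narrowest for Chrna7 (-0.279 to 0.113) and Chrnb2 (-0.273 to 0.120). Without mutant 1, the lowest library of Chrnb1, Chrnb1 (0.96) and Chrm2 (-0.28) were called, beside 3.08% of all genes. The value of Chrnb1 rests on mutant 2, the library through which it passed the filter.

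The comparison of Isl1Cre/+ with WT addresses the Cre allele and the loss of 1 Isl1 copy. It shares its libraries with the comparisons above. Again none of the 10 genes was called or had an unadjusted p under 0.05 in edgeR, beside 1.4% of all genes called. DESeq2 also called none, whereas limma voom called Chrnb1, lower in Isl1Cre/+, beside 1.06% of all genes. Chrna3 was called, lower in Isl1Cre/+, in the joint fit of the 3 genotypes (log2 fold change -0.31, edgeR unadjusted p = 0.0455) and with the replicate number as a block (-0.31, unadjusted p = 0.0477). In 2 of the 10, Chrna3 and Chrnb1, every Isl1Cre/+ library was below every WT library, beside 5.66% of all genes with no overlap in either direction. Chrna3 had a log2 fold change of -0.30 (SE 0.150, -0.650 to 0.051, edgeR unadjusted p = 0.0835), Chrnb4 of -0.26 (SE 0.182, -0.691 to 0.163, unadjusted p = 0.189) and Chrm1 of 0.22 (SE 0.133, -0.096 to 0.527, unadjusted p = 0.147).

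Chrnb1 was at 2.43 ± 0.390 CPM in WT and 1.71 ± 0.214 in Isl1Cre/+, a log2 fold change of -0.49 (SE 0.221, -1.009 to 0.025, unadjusted p = 0.0591). The skeletal muscle markers summed to 72.8 to 178 CPM in Isl1Cre/+ and 130 to 1003 in WT, with overlap, and their part in this difference was not tested. The remaining 6 genes had log2 fold changes from -0.02 for Chrna6 to 0.13 for Chrm4. Chrnb2 was again the best determined, at 69.1 ± 2.50 and 70.7 ± 1.40 CPM (0.04, -0.112 to 0.198). Calls appeared when single libraries were left out: Chrm4 without WT 1 (beside 2.58% of all genes), Chrnb1 without WT 2 (beside 2.09%), and Chrna3 with Chrnb4 without Isl1Cre/+ 3 (beside 0.773%).

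**Figure D5:**
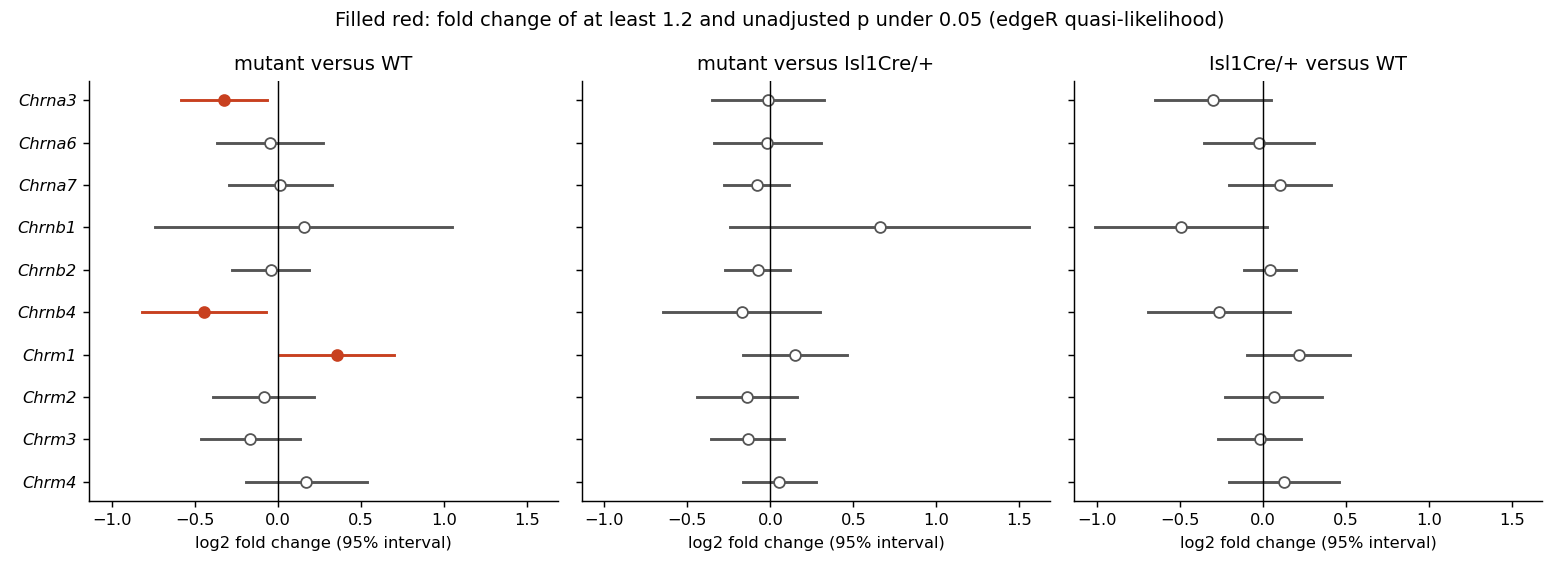
Log2 fold change of each receptor gene with its 95% interval (edgeR) in the 3 comparisons, with called genes filled in red. Chrna3, Chrnb4 and Chrm1 are called between the mutant and WT alone, and the interval of Chrm1 begins at 0.009. The widest intervals are those of Chrnb1.

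The remainder of the cholinergic pathway was followed in fixed lists. Of 11 further receptor subunit genes, 2 had enough counts to be tested, Chrna4 and Chrna5, and neither was called in any comparison. In Chrna4 every mutant library was below every WT library (beside 2.76% of all genes with no overlap). Its log2 fold change was -0.23 against WT (-0.533 to 0.065, edgeR unadjusted p = 0.107) and -0.23 against Isl1Cre/+ (-0.545 to 0.084, unadjusted p = 0.128). Of 7 genes for the synthesis, storage, uptake and breakdown of acetylcholine, 4 were tested and none was called. Over all genes 0.318%, 1.67% and 1.4% were called in the 3 comparisons, so that a list this short would rarely hold a call. Chat, which makes acetylcholine, had 1 to 3 counts in each library, and Slc18a3, which loads it into vesicles, 4 to 14. Slc5a7, the choline transporter, had 298 to 512. Ache and Bche, which break acetylcholine down, had 2497 to 3730 and 1263 to 2063 counts. Transcripts of the synthetic enzyme were thus near 0, and those of both esterases were well detected. Mnx1, the defining factor of motor neurons, had 0 or 1 count in every library.

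Of 17 effectors of muscarinic receptors, such as the G protein subunits Gnaq and Gnai2 and the phospholipases Plcb1 and Plcb4, 16 were tested and none was called in any comparison, beside the same shares of all genes. The medians of their log2 fold changes were -0.027 for the mutant against WT, -0.005 for the mutant against Isl1Cre/+ and 0.005 for Isl1Cre/+ against WT, beside -0.009, 0 and -0.002 over all genes. In 1 of the 16, Grk3, every Isl1Cre/+ library was below every WT library (log2 fold change -0.25, edgeR unadjusted p = 0.0523). Over all genes 5.66% had no overlap in that comparison. Of 12 genes for assembly, clustering and modulation of nicotinic receptors, 10 were tested and 1 was called, in the comparison of the mutant with Isl1Cre/+, where 1.67% of all genes were called. Lypd6, a membrane-anchored protein of the Ly6 family that binds nicotinic receptors, was higher in the mutant than in Isl1Cre/+, at 19.2 ± 0.559 against 15.7 ± 1.16 CPM (log2 fold change 0.29, SE 0.0833, edgeR unadjusted p = 0.00951, adjusted p = 1). In WT it stood at 16.7 ± 0.672 CPM, and the difference of the mutant from WT was 0.20 (unadjusted p = 0.072), with every mutant library above every WT library.

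Likeness over the 9 libraries was described by the gene, among 13199 others, whose log2 CPM had the highest Pearson correlation with each receptor gene. These were 2700081O15Rik for Chrna3 (0.909), Htr5a, a serotonin receptor, for Chrna6 (0.936) and Fbxo28 for Chrna7 (0.989). For Chrnb2 it was Ubox5 (0.964) and for Chrnb4 Htr7, another serotonin receptor (0.977). Among the muscarinic genes these were Kcnip1 for Chrm1 (0.834), Caprin1 for Chrm2 (0.930), Tmem163 for Chrm3 (0.977) and Tbl3 for Chrm4 (0.926). Chrna3 and Chrnb4 were each at rank 3 in the other's order, and Th was at rank 2 for Chrnb4 (0.908). These values are a description of 9 points, and the best of so many genes is high by selection.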

How the data were processed

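RNA of DRG from 9 E18.5 libraries was measured (3 genotypes, 3 libraries each, from the labels). The deposited counts are whole numbers of reads per gene, made by the authors from poly(A) RNA with unique molecular identifiers, aligned to mm10 with STAR 2.7.10 and counted with HTSeq 0.6. The strand option and annotation release are not given in the sources used here. The table's other columns, the authors' limma voom results, were not used.

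Genes with at least 100 counts in 1 library were tested for each pair of genotypes with edgeR 4.0.16 (quasi-likelihood, TMM, R 4.3.3), and p-values adjusted by Benjamini-Hochberg over all 13200. SEs were taken from the F statistic. An exact 2-sided permutation test with 3 against 3 libraries reaches p = 0.1 at the lowest. The scripts were tested on simulated data. Depth was 23854607 to 29103444 counts, and a gene with few counts carries more counting error.

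The receptor genes and lists were chosen with earlier results of these data known. Named by rule are the receptor genes, called genes of the lists, the closest gene to each, and Meis2 and Isl1 as a check of the genotypes. C1qc was named by that rule. The marker genes, and uncalled genes of the lists such as Chrna4, Chrna5, Grk3, Chat and Ache, are beside values outside it, some named after their values were seen. Lengths came from GENCODE M21, which holds 54855 of the 55247 identifiers in the same version. Alternatives were DESeq2 1.42.0 (test and size factors), library size only, 2 other filters, limma voom 3.58.1, a joint fit, the replicate block, all 6 controls and each library left out. The robust quasi-likelihood fit, and leaving out WT 1 with mutant 2, were added after seeing the data.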

Additional observations from a re-analysis of the deposited data

How the results depend on the processing

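Of the 10 receptor genes, 3 were called between the mutant and WT. This became 1 with library size only (beside 0.258% of all genes called), 0 against all 6 controls (0.674%), 4 without WT 1 and mutant 2 (1.38%), and 0 to 3 with each library left out (0.303% to 1.0%). For the mutant against Isl1Cre/+ the count of 0 became 1 without the filter (3.18%) and 0 to 2 with each library left out (1.27% to 3.08%). For Isl1Cre/+ against WT the count of 0 became 1 without the filter (2.6%), with limma voom (1.06%) and in the joint fit (0.955%), and 0 to 2 with each library left out (0.773% to 2.58%). Replicate numbers did not pair the libraries (deviations of same-numbered libraries correlated at -0.595 to 0.389), and the replicate block gave 2, 0 and 1 calls in the 3 comparisons (0.235%, 1.34% and 1.79% of all genes). With the longest transcript as length, 6 of 10 ranks were kept. Causes were not tested.

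Of 467 fits of single genes, 407 kept direction and side of the threshold, 19 lost the call, 13 gained it and 28 changed sign, none of these called. Between the mutant and WT, Chrna7 became -0.04 against all 6 controls and -0.047 without WT 1 and mutant 2, where Chrnb1 became -0.22 and Chrnb2 0.046. Chrna3 against Isl1Cre/+ became 0.001 with limma voom. In Isl1Cre/+ against WT with library size only, Chrna6 became 0.002 and Chrm3 0.014. With each library left out, values between the mutant and WT ran from -0.105 to 0.086 for Chrna7, -0.275 to 0.461 for Chrnb1 and -0.130 to 0.049 for Chrnb2. Against Isl1Cre/+ they ran from -0.148 to 0.110 for Chrna3, -0.098 to 0.077 for Chrna6, -0.161 to 0.002 for Chrnb2 and -0.318 to 0.001 for Chrnb4. For Isl1Cre/+ against WT they ran from -0.118 to 0.062 for Chrna6, -0.033 to 0.185 for Chrna7, -0.036 to 0.158 for Chrm2 and -0.064 to 0.051 for Chrm3.

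Depth limits Chrnb1 most, at 38 to 109 counts.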
